A study of Mus musculus with 6 samples.

Results

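The CD3 complex chain genes Cd3d, Cd3e, Cd3g and Cd247 encode the signalling chains that accompany the T cell receptor, and H3K4me3 over these 4 genes was examined among 21887 protein-coding genes. H3K4me3 is a histone mark of active gene starts. Regions of each deposited peak list were taken if they overlapped a gene body, as listed by RefSeq on GRCm38, or the 5 kb on either side of it, referred to as the window of the gene. The windows held 18 of the 46565 regions of the Atg5 knockout list and 11 of the 48546 regions of the wild-type list.

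Chromatin came from CD8+ tumour-infiltrating lymphocytes of C57BL/6 mice carrying E0771 tumours, which grow from a mammary cancer cell line of that strain. The knockout cells came from mice with Cre-mediated deletion of Atg5, a gene needed to form autophagosomes, and the wild-type cells from mice without that deletion. Each genotype had 1 H3K4me3 library. The sources used here do not give the Cre driver, the age of the mice or the number pooled. H3K27me3 and input libraries of the same series were not used here. With 1 library per genotype no difference below has a replicate check, and no p-value is given. In such bulk samples, fewer cells of a type and less of the mark per cell cannot be told apart.

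The T cell receptor itself has almost no cytoplasmic tail and relies on the CD3 chains for signalling. The delta and gamma chains each pair with an epsilon chain, and the zeta chain, encoded by Cd247, forms a pair with itself. Tyrosine-based activation motifs (ITAMs) in the tails of these chains are phosphorylated by the kinase Lck and then bind the kinase ZAP-70. The chains are made throughout the T lineage, so their genes do not tell T cells of the CD8 kind from those of the CD4 kind.

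The labelled cell type was checked against other T cell markers. Covered length is the number of bp of a window that lie under regions. Besides CD3, 7 T cell markers (Cd2, Cd5, Cd6, Lck, Cd8a, Cd8b1 and Cd4) had 86709 bp covered in sum in the knockout list and 11780 bp in the wild-type list, and all 7 were longer in the knockout list. The sum pools Cd4 with 6 genes that were at least 2 times as long and at least 1000 bp longer in the knockout list. Cd4, the co-receptor gene of the other T cell kind, was not, with 3944 bp in the knockout list and 3303 bp in the wild-type list. Over all protein-coding genes, 35.1% were longer in the knockout list by any length. Of the 16415 with a region in either list, 7672 were. The rule of 2 times and 1000 bp was met by 4.66% of all protein-coding genes. Of the 7 markers, 6 also belong to the list of signalling genes described further on. In the wild-type list the CD8 alpha chain gene Cd8a was at 0 bp and Cd8b1 had 705 bp, so the list labelled wild-type CD8+ lymphocytes showed little of the mark at defining genes of these cells. In the knockout list Cd8a had 8723 bp and Cd8b1 had 19808 bp.

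The sequence before each gene start is shown because the listed starts of all 4 genes lay under knockout regions and under no wild-type region. Each line gives the 250 bases before the start listed by RefSeq (GRCm38.p6), 5′ to 3′ on the strand of the gene, with CpG dinucleotides, the context in which H3K4me3 is usually densest, in capitals.
Cd3g (chr9:44980432-44980681, minus strand): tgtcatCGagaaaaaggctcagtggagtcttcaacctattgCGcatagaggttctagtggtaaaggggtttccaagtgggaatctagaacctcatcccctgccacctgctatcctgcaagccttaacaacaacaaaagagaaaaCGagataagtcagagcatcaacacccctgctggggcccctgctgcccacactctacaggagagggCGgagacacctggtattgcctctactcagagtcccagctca
Cd3d (chr9:44981536-44981785, plus strand): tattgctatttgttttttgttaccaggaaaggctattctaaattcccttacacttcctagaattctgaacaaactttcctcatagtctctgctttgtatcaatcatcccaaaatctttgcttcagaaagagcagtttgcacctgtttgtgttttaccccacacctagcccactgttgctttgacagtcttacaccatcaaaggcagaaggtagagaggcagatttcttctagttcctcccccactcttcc
Cd3e (chr9:45009612-45009861, minus strand): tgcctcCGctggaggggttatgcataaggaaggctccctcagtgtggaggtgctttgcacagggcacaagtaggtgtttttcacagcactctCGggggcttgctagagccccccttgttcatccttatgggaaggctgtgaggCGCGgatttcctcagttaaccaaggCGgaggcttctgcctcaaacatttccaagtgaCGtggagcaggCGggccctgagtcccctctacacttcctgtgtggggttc
Cd247 (chr1:165788431-165788680, plus strand): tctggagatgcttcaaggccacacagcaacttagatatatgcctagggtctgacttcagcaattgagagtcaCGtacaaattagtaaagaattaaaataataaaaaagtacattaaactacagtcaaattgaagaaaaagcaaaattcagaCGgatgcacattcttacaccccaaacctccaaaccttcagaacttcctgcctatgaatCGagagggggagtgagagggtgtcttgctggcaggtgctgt

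Each of these stretches held fewer CpG dinucleotides than the median stretch, but only that of Cd3d lay below the lower quartile. The Cd3d stretch held 0 CpG dinucleotides, Cd247 held 3, Cd3g held 4 and Cd3e held 7, against a median of 10 over 17492 protein-coding genes with a listed start. The lower quartile over those genes was 3 and the upper quartile was 19. For Cd3d, 7.3% of these genes had as few CpG dinucleotides. The share with as few or fewer was 29.7% for Cd247, 34.2% for Cd3g and 44.2% for Cd3e. Starts with at most 7 CpG lay under a knockout region for 20.6% of 7726 genes and under a wild-type region for 19.4%. Starts with more lay under a knockout region for 84.5% of 9766 genes and under a wild-type region for 80.2%. The limit of 7 was set at the richest CD3 stretch, so all 4 fall in the lower class by construction. All 4 CD3 starts lay under a knockout region and under no wild-type region.

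Short motifs were counted on both strands of the same stretches, with letters chosen after the sequences were seen. The ETS core AGGAAG was present in 3 of the 4, before Cd3d, Cd3e and Cd247, and in 28.2% of all 17492 stretches. An E-box, CANNTG, was present in all 4 and in 62.7% of all stretches. The Ikaros core TGGGAA was present before Cd3e and Cd3g (20.8% of all stretches), the GATA core AGATAA before Cd3g (9.1%) and the TCF/LEF core CTTTGA before Cd3d (13.1%). Neither the TATA box TATAAA (12.4%) nor the RUNX core TGTGGT (12.5%) was found in these 4 stretches. One E-box before Cd3g overlapped its Ikaros core, and no other matches overlapped. A match describes letters and not a bound site.

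Every CD3 chain gene was more widely covered in the knockout list. Covered length was 11298 bp in the knockout list and 2572 bp in the wild-type list for Cd3d, which encodes the delta chain. For Cd3g, the gamma chain, it was 11466 bp in the knockout list and 3321 bp in the wild-type list. Cd3e, the epsilon chain, had 5228 bp in the knockout list and 0 bp in the wild-type list, where no region touched its window. Cd247, the zeta chain, had 30803 bp in the knockout list and 8120 bp in the wild-type list. The knockout value was thus 4.39 times the wild-type value for Cd3d, 3.79 times for Cd247 and 3.45 times for Cd3g. The Cd3g window also holds the start of the neighbouring gene Ube4a, which lay under a region in both lists. Without that region, an alternative added after seeing the data, Cd3g had 9234 bp in the knockout list and 1033 bp in the wild-type list, 8.94 times as much. Over the gene bodies alone the value was 13.8 times for Cd3g, 3.79 times for Cd247 and 2.51 times for Cd3d. As a share of its window, Cd3d was covered over 73.9% in the knockout list and 16.8% in the wild-type list, the highest share of the 4 in each. Cd3g followed with 55.0% in the knockout list and 15.9% in the wild-type list, then Cd247 with 30.4% in the knockout list and 8.02% in the wild-type list. Cd3e came last with 24.98% in the knockout list and 0% in the wild-type list. The order of the lower shares depends on the Ube4a region, since Cd3g without it was covered over 44.3% in the knockout list and 4.95% in the wild-type list, which is below Cd247 in the wild-type list. The windows of Cd3d and Cd3g share bases and are not separate observations.

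**Figure D1:**
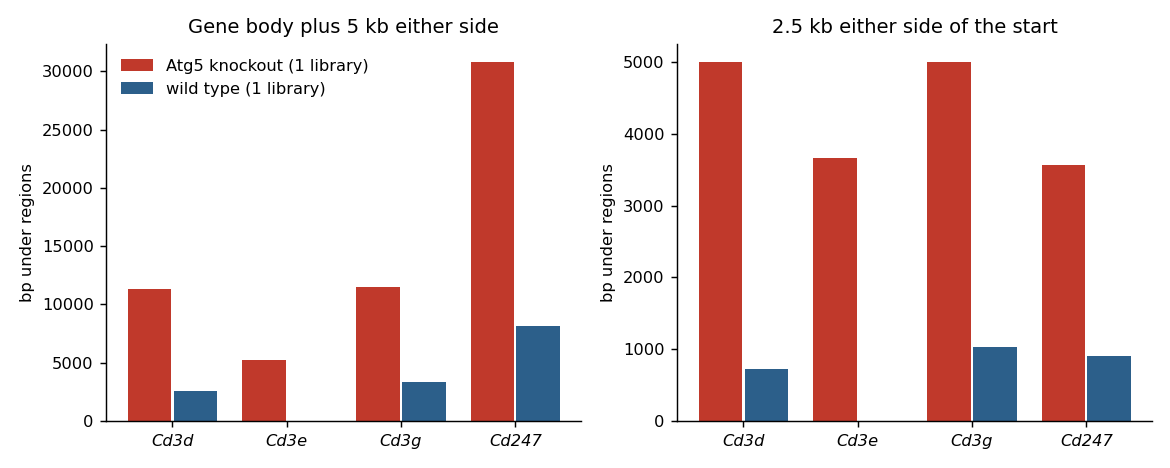
Bars give the bp under H3K4me3 regions for the 4 CD3 chain genes in the Atg5 knockout library (red) and the wild-type library (blue), over the gene body plus 5 kb either side (left) and within 2.5 kb of the listed start (right). The knockout bar is longer for each gene in both panels, and Cd3e has no wild-type bar.

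Set against all genes, such differences were uncommon. The members were chosen with earlier results of these data known, so their counts are not independent evidence of a direction. The windows of Cd3d and Cd3g also share bases, so the 4 genes are not 4 separate observations. A covered length at least 2 times as long and at least 1000 bp longer in the knockout list was seen at all 4 CD3 genes and at 4.66% of the 21887 protein-coding genes. The converse, longer in the wild-type list by the same rule, was seen at 0 of 4 and at 2.36% of all genes. A window with regions in the knockout list only was seen for 1 of 4, Cd3e, and for 2.16% of all genes, and one with regions in the wild-type list only for 0 of 4 and for 2.65% of all genes. Covered length was longer in the knockout list by any amount for 4 of 4 and for 35.1% of all genes, and longer in the wild-type list by any amount for 0 of 4 and for 39.9%. All genes include those with no region in either list. Of the 16415 with a region in either, 7672 were longer in the knockout list and 8728 in the wild-type list. The median difference, knockout minus wild type, was 8435.5 bp over the 4 genes, 0 bp over all genes and −50 bp over those 16415. Ranked by this difference among all genes, Cd247 was at place 30, Cd3d at 235, Cd3g at 270 and Cd3e at 548. A long gene has more room for a difference, and the Cd247 window of 101202 bp is the longest of the 4.

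The listed starts of all 4 genes lay under a knockout region and under no wild-type region, a pattern seen at 4.18% of the 17492 genes with a listed start. The opposite pattern was seen at 1.23%. Within 1 kb of the start on either side, all 2001 bp were covered in the knockout list at each of the 4 genes. In the wild-type list, 726 of these bp were covered at Cd3d, 369 bp at Cd247 and 0 bp at Cd3g and Cd3e. The nearest wild-type region began 112 bp past the Cd3d start and 209 bp past the Cd247 start. The region nearest to the Cd3g start, which is the one past the Cd3d start, lay 1467 bp from it on the upstream side. For Cd3e the nearest lay 22397 bp from the start, beyond its window. These values hold for the listed start only: the lower end of the Cd247 gene as RefSeq lists it, farther upstream, lay under a region in both lists. All 250 bases shown above for each gene lay under a knockout region, and 0 of them under a wild-type region.

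Cd3g and Cd3d lie head to head on chromosome 9, with starts 1355 bp apart on opposite strands. In the knockout list 1 region of 11869 bp (chromosome 9, 44976198 to 44988066) spanned both starts, the whole of the Cd3d gene and 4234 bp of the Cd3g gene. From the Cd3g start it ran 4233 bp into the gene, which is 10860 bp long. Only 69 regions of the knockout list were wider, out of 46565. Its authors' fold, which relates reads at the summit to a background estimate within that library, was 25.4, above 80.6% of the knockout list. The width of this region was therefore rarer within its list than its height.

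The wild-type list held 3 separate regions inside that interval. A region of 307 bp lay in the Cd3g gene with a fold of 3.12. A region of 726 bp lay just past the Cd3d start with a fold of 3.38, lower than all but 4.18% of the wild-type list. The third spanned 1539 bp at the 3′ end of Cd3d (44985676 to 44987214) with a fold of 11.7, and was the strongest of the 3. Together these regions covered 21.7% of the knockout region. In the wild-type library the mark was thus higher at the end of Cd3d than at either start, whereas the knockout summit lay 327 bp past the Cd3d start.

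Whole numbers of reads at each summit could be recovered from the deposited fold and −log10 p. At the Cd3d start, where the summits of both lists lay 9 bp apart, the knockout summit held 91 reads over a background of 2.62 reads. The wild-type summit held 12 reads over a background of 2.85 reads. The wild-type value is near the lowest summit, of 10 reads, among the regions of each list examined in this way. These reads were not scaled between libraries.

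**Figure D2:**
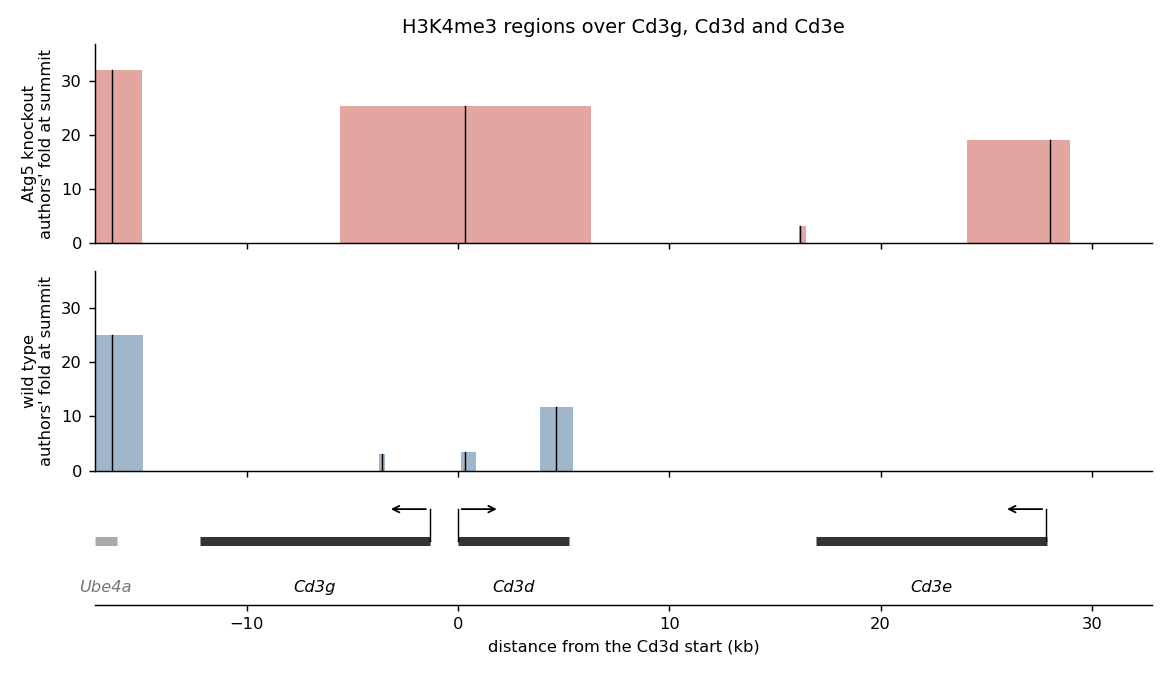
Regions over the Cd3g, Cd3d and Cd3e cluster, with distance from the Cd3d start in kb across and the authors' fold at the summit upwards, in the knockout list (top) and the wild-type list (middle). Boxes span regions, black lines mark summits, arrows mark listed starts and their direction, and grey marks the neighbouring gene Ube4a. The 11869 bp knockout region spans both head-to-head starts, and the wild-type panel is empty over Cd3e.

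Cd3e starts 27825 bp from Cd3d and is read towards it. The knockout list held a region of 4900 bp at its start (chromosome 9, 45005878 to 45010777). Relative to the start, this region ran from −1166 bp (upstream) to 3733 bp into the gene, and it covered 34.6% of the gene body. Its fold was 19.1, its summit held 68 reads, and the summit lay at −216 bp. It was wider than 96.9% of the knockout list and met no wild-type region. A second knockout region of 328 bp lay just past the 3′ end of Cd3e with a fold of 3.16 and 13 reads. The 11682 bp between the Cd3d and Cd3e genes held only that region and the last 1014 bp of the region over Cd3d in the knockout list, and 162 bp at the end of Cd3d in the wild-type list.

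Cd247 on chromosome 1 (165779952 to 165871153) had 14 knockout regions and 7 wild-type regions in its window, so its marking was spread over many sites. The widest knockout region spanned 8041 bp (165787613 to 165795653), from −1068 to 6972 bp relative to the listed start. Its fold was 24.0, and it was wider than 99.4% of the knockout list. The wild-type list held 2 short regions inside it, of 369 bp with a fold of 4.42 and of 539 bp with a fold of 2.76. These covered 11.3% of the knockout region. The summit of the weaker wild-type region lay 6 bp from the knockout summit, with 86 reads in the knockout library and 11 in the wild-type library.

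Other sites in Cd247 were marked in both libraries, with regions of like width. At the lower end of the listed gene, 8729 bp before the start used here, each list held a narrow strong region. It spanned 1724 bp with 90 summit reads in the knockout list and 1398 bp with 102 summit reads in the wild-type list. At 52341 bp into the gene, by the knockout summit, the regions spanned 1268 bp with 45 reads in the knockout list and 1213 bp with 49 reads in the wild-type list. At 64632 bp they spanned 1621 bp with 21 reads in the knockout list and 1609 bp with 33 reads in the wild-type list. These 3 sites had more reads in the wild-type library, unlike the site at the gene start, but reads were not scaled between libraries. The authors' fold at the lower end was 25.2 in the knockout list and 26.8 in the wild-type list. At 52341 bp it was 12.7 in the knockout list and 13.0 in the wild-type list. At 64632 bp it was 6.08 in the knockout list and 8.77 in the wild-type list.

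A pair of sites inside Cd247 differed more in width than in height. At 26191 bp from the start the knockout region spanned 3554 bp with 40 summit reads, and the wild-type region spanned 1350 bp with 75. At 56703 bp the knockout region spanned 6450 bp with 78 summit reads, and the wild-type region spanned 1642 bp with 47. Of the 14 knockout regions in Cd247, 8 met no wild-type region, a share not set against all knockout regions. The folds of these 8 ran between 3.59 and 9.67. They were below those of the knockout regions at the start and at the lower end of the gene.

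**Figure D3:**
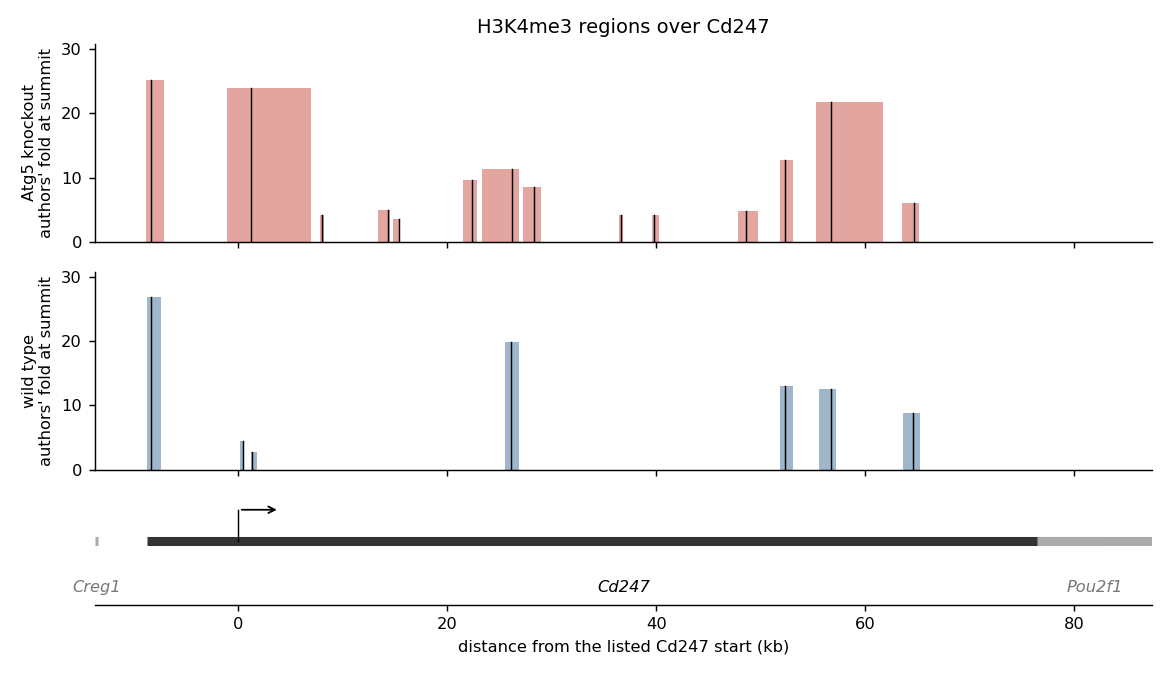
Regions over Cd247, with distance from its listed start in kb across and the authors' fold at the summit upwards, in the knockout list (top) and the wild-type list (middle). Boxes span regions, black lines mark summits, the arrow marks the listed start, and grey marks the neighbouring genes Creg1 and Pou2f1. The start lies under an 8041 bp knockout region and beside 2 short wild-type regions, while several sites farther in are present in both.

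Over the 4 windows, 8 of the 18 knockout regions overlapped a wild-type region by at least 1 bp. All 11 wild-type regions overlapped a knockout region. The same counts over all regions of each list are not given here, so they cannot be called particular to these windows. Over the listed starts of all genes, 9115 of the 9330 under a wild-type region also lay under a knockout region. The same 9115 were among 9846 under a knockout region. Of the covered wild-type bases, 98.3% in the Cd3g window, 99.6% in the Cd247 window and 100% in the Cd3d window also lay under knockout regions. Conversely, 28.5% of the covered knockout bases in the Cd3g window lay under wild-type regions, 26.3% in the Cd247 window, 22.8% in the Cd3d window and 0% in the Cd3e window. In these windows the wild-type coverage thus lay almost wholly within that of the knockout. The share of bases over all windows is not given here, so this too cannot be called particular to the CD3 genes. With a reciprocal overlap of 50% required, 4 knockout and 4 wild-type regions were shared.

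At 8 sites the summits of the lists lay within 100 bp of each other. Their reads are set side by side but were not scaled between libraries, so small gaps cannot be read as differences. By these unscaled reads the knockout summit held more at 4 of the sites and the wild-type summit at 4. The widest gaps were at the Cd3d start (91 knockout and 12 wild-type reads) and the Cd247 start (86 knockout and 11 wild-type reads). At the start of Ube4a, a ubiquitin ligase gene whose promoter falls in the Cd3g window, the knockout summit held 134 reads and the wild-type summit 95. Leaving this Ube4a region aside, no wild-type region in the Cd3g window had a fold above 3.38.

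**Figure D4:**
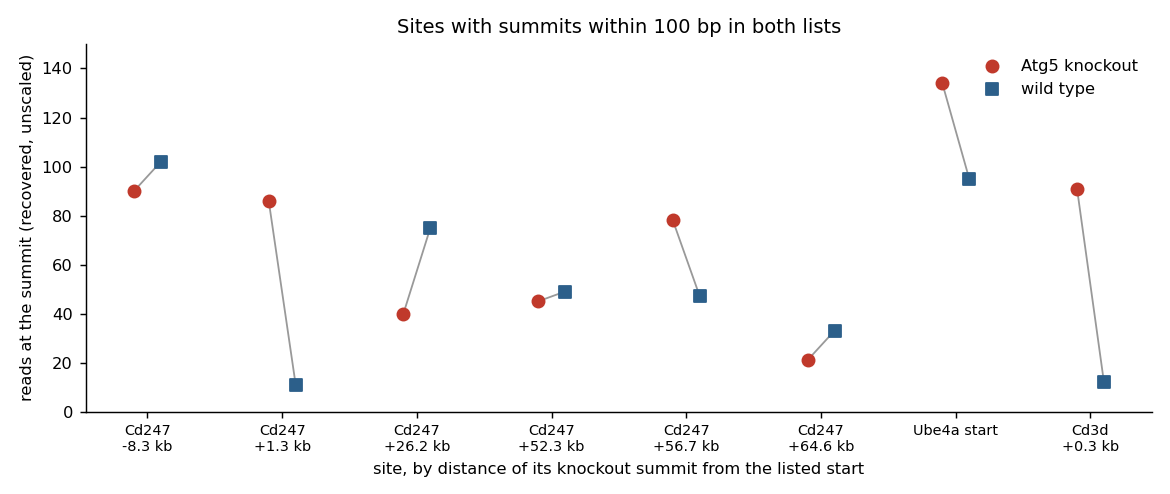
Reads at the summit, recovered from the deposited values and not scaled between libraries, at the 8 sites whose summits lay within 100 bp in both lists, with knockout (red circles) left of wild type (blue squares). The Cd3d and Cd247 start sites (at +0.3 and +1.3 kb) show 91 and 86 knockout reads beside 12 and 11 wild-type reads, and the other 6 sites lie closer together.

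Several neighbouring genes had an end marked in both libraries. All 2001 bp within 1 kb of the upper end of Ube4a, which lies 3957 bp from Cd3g, were covered in both lists. The same held for the upper end of Atp5l, a subunit gene of ATP synthase, for the lower end of Creg1, and for the upper end of Pou2f1, which encodes the transcription factor OCT1. Mpzl2, an adhesion molecule gene 32681 bp beyond Cd3e, had 1202 bp covered within 1 kb of its lower end in the knockout list and 1183 bp in the wild-type list. Other ends differed, with 1376 bp in the knockout list and 0 bp in the wild-type list at the upper end of Rcsd1, and 569 bp in the knockout list and 0 bp in the wild-type list at the lower end of Atp5l. Both ends of Dusp27 were at 0 bp in both lists. Over gene bodies the difference, knockout minus wild type, was 1454 bp for Ube4a, 839 bp for Atp5l, 639 bp for Mpzl2, 695 bp for Pou2f1 and −148 bp for Creg1. The difference was 2797 bp for Rcsd1 and −799 bp for Dusp27, the next coding genes outside the Cd247 window. The smallest such gene-body difference among the CD3 genes was 3181 bp, at Cd3d. Covered length over whole chromosomes, knockout over wild type, was 1.05 for chromosome 9 and 1.01 for chromosome 1.

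Genes that act with the CD3 chains were also more widely covered in the knockout list. Of 30 T cell receptor signalling genes, 29 had a longer covered length in the knockout list and 1 had a shorter one. Their median difference was 8620.5 bp. Of all genes, 35.1% were longer in the knockout list, as were 7672 of the 16415 with a region in either list. All 30 windows held a region in the knockout list and 26 in the wild-type list. Over all 21887 genes, 15835 windows held a region in the knockout list and 15943 in the wild-type list. With the 20000 regions of highest −log10 p in each list, 30 signalling windows held one in the knockout list and 15 in the wild-type list. The count over all genes under that setting is not given here. The rule of 2 times and 1000 bp was met by 26 of 30, against 4.66% of all genes. The list was chosen with earlier results of these data known and is not independent evidence of this direction.

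Large differences in that list were seen at Ptprc, the phosphatase CD45 that keeps Lck active, with 52042 bp in the knockout list and 10510 bp in the wild-type list. Grap2, the adaptor GADS, had 46736 bp in the knockout list and 8278 bp in the wild-type list. Prkcq, protein kinase C theta, had 38521 bp in the knockout list and 3997 bp in the wild-type list, and Cblb, a ubiquitin ligase that restrains signalling, had 31680 bp in the knockout list and 10894 bp in the wild-type list. These 4 genes all carried some coverage in the wild-type library.

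The kinases and the adaptor nearest to the CD3 chains had the same direction. Lck, which phosphorylates the ITAMs, had 19499 bp in the knockout list and 4719 bp in the wild-type list. Zap70, whose product binds them, had 8478 bp in the knockout list and 598 bp in the wild-type list. Lat, the membrane adaptor that ZAP-70 phosphorylates, had 6109 bp in the knockout list and 903 bp in the wild-type list. Nck1, an adaptor with wide tissue distribution, differed from the rest, at 4933 bp in the knockout list and 5847 bp in the wild-type list.

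**Figure D5:**
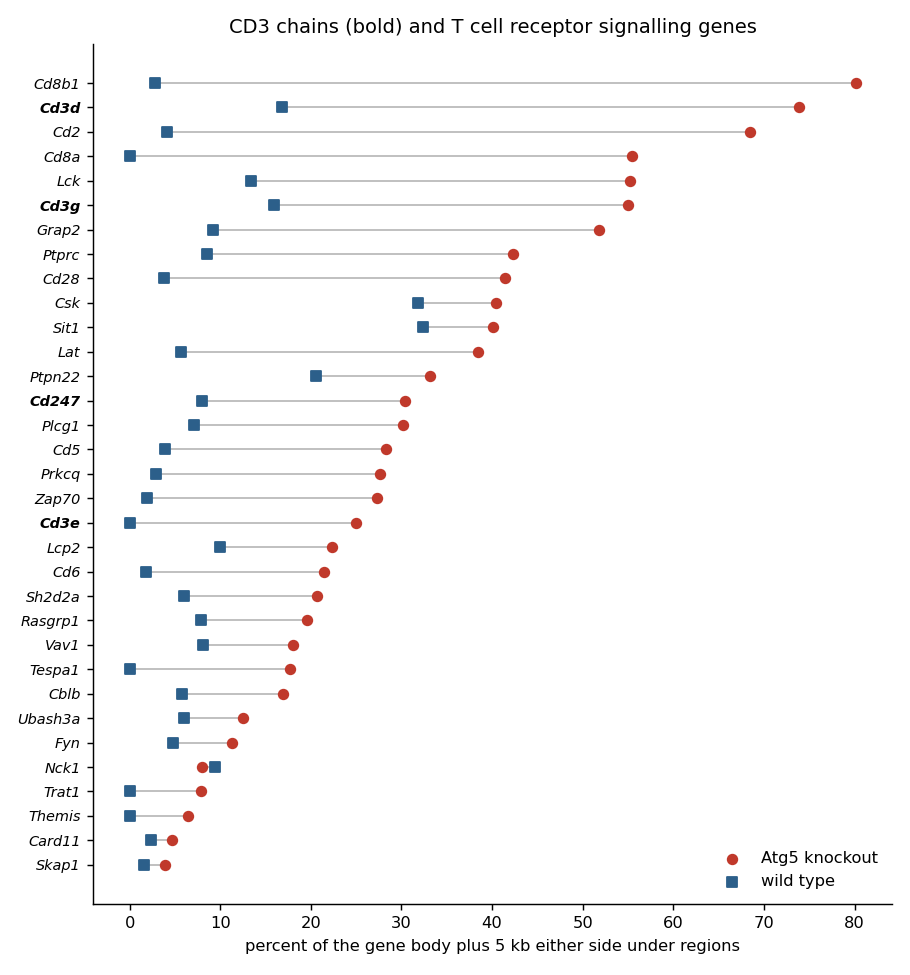
Percent of the gene body plus 5 kb either side under H3K4me3 regions for the 4 CD3 chain genes (bold) and 29 of the 30 T cell receptor signalling genes, in the Atg5 knockout library (red circles) and the wild-type library (blue squares), ordered by the knockout value. The knockout point lies right of the wild-type point for every gene shown but Nck1.

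Genes of ITAM-bearing adaptors used by other cells differed less. Tyrobp (DAP12), of myeloid and NK cells, had 8353 bp in the knockout list and 7039 bp in the wild-type list. Fcer1g, the common gamma chain of Fc receptors, had 3384 bp in the knockout list and 4201 bp in the wild-type list. The B cell receptor chains Cd79a and Cd79b had 6971 and 3543 bp in the knockout list and 4731 and 1917 bp in the wild-type list. None of these 4 genes met the rule of 2 times and 1000 bp.

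Of all genes outside the CD3 loci, those with shares covered most like the mean of the CD3 chains (46.1% in the knockout list and 10.2% in the wild-type list) were Il21r, Lbh, Bcl11b, Gimap5 and Sash3. Likeness was the Euclidean distance between percentages over these 2 libraries. It was 2.02 percentage points for Il21r, which had 44.4% in the knockout list and 9.14% in the wild-type list, and 3.92 points for Sash3.

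Both libraries also carried the mark at genes of other cell types. Summed over 12 myeloid genes, 39959 bp were covered in the knockout list and 45788 bp in the wild-type list, with 9 of 12 longer in the wild type and none at 0. Over all genes, 39.9% were longer in the wild-type list by any length and 35.1% in the knockout list. Over 6 fibroblast genes the sums were 18090 bp in the knockout list and 25548 bp in the wild-type list, with 6 of 6 longer in the wild type and none at 0. Over 6 endothelial genes they were 21634 bp in the knockout list and 25732 bp in the wild-type list, with Tek and Emcn at 0 in both. The largest part of each sum was Pecam1, the 1 gene longer in the knockout, with 16437 bp there and 12614 bp in the wild type. The 3 longer in the wild type were Cdh5 (2776 bp knockout, 8133 bp wild type), Tie1 (53 and 2583 bp) and Kdr (2368 and 2402 bp). Over 9 epithelial and tumour genes the sums were 21889 bp in the knockout list and 18550 bp in the wild-type list, with 4 longer in the knockout, 2 in the wild type, and Krt5, Krt14 and Krt19 at 0 in both. Over 8 B cell genes they were 21932 bp in the knockout list and 16563 bp in the wild-type list, with 4 longer in the knockout list and 2 in the wild-type list. Ms4a1 and Cd22 were at 0 in both lists. Over 6 NK cell genes they were 21871 bp in the knockout list and 731 bp in the wild-type list, with Ncr1 and Klra8 at 0 in both and Klrk1 and Klre1 at 0 in the wild type. Activated CD8 T cells also use Klrk1 and Klrd1 of this list. The 10 housekeeping genes had 67863 bp in the knockout list and 61500 bp in the wild-type list. The part of the cell makeup of each sample in the CD3 differences was not tested.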

How the data were processed

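H3K4me3 was measured by native ChIP-seq in CD8+ tumour-infiltrating lymphocytes, with 1 library per genotype. Peaks were called with MACS2 on GRCm38 (mm10), per the submitters' processing notes. The sources used here do not give its version or settings, the aligner or the use of the input. The deposited lists give regions, summit positions, a fold (a ratio to a background estimate), −log10 p and −log10 q. The lowest background recovered was 2.62 reads in the knockout list and 2.85 reads in the wild-type list. Most regions of the CD3 windows had that lowest value of their list. The deposited score, about 10 times the −log10 q, was not used. These values are the authors' own, are not scaled between libraries, and describe regions within 1 list only. Each list came from 1 library, as far as its peak names show.

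Only chromosomes 1 to 19, X and Y entered the counts (46565 in the knockout list, 73.1 Mb; 48546 in the wild-type list, 71.3 Mb). Depth is not stated. Deposited −log10 q values began at 2.02 in the knockout list and 2.00 in the wild-type list. Region widths depend on depth and on the calling threshold. Summit reads n were recovered from fold = (n + 1)/(background + 1) and a Poisson p. In 1 of every 10 regions of each list with a −log10 p under 250 this gave whole reads within 0.001 of the −log10 p for 4583 of 4584 knockout and 4802 of 4802 wild-type regions.

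Gene positions, promoter sequences and listed starts came from RefSeq tables (GRCm38.p6), and all 4 members matched. The promoter table covers 17492 coding genes, and where a gene has several starts its first row was used. Exons were not used here. Covered lengths were checked on simulated regions. The software was SciPy 1.17.1, Matplotlib 3.10.9, pandas 2.3.3 and NumPy 2.4.6 under Python 3.11.15. The members, gene lists and genes to be named were chosen with earlier results of these data known. Besides the members, the text names overlapping or next coding genes, the 5 signalling genes with the largest difference each way (1 was negative) with Lck, Zap70, Lat and Ptprc, 4 ITAM adaptors, and the 5 genes most alike in percent covered. A gene this rule would name is not reported here. Cell markers at 0 and the endothelial genes were named after their values were seen. No test was possible between single libraries.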

Additional observations from a re-analysis of the deposited data

How the results depend on the processing

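Covered length stayed longer in the knockout list for all 4 CD3 genes under each of 9 alternatives, which were other windows, stricter −log10 q limits of 5 and 10, equal list lengths, joined regions and summit-based assignment. The difference, knockout minus wild type, ran between 3181 and 9759 bp for Cd3d, 3927 and 9372 bp for Cd3g, 3667 and 5974 bp for Cd3e, and 2661 and 23979 bp for Cd247. Without the region at the Ube4a start, added after seeing the data, the Cd3g difference was 8201 bp. The lowest Cd247 value came from the window of 2.5 kb either side of its start. The count of T cell receptor signalling genes with a wild-type region was 26, and 15 with the 20000 regions of highest −log10 p in each list. It was 23 over gene bodies alone, 24 with 2 kb flanks and 20 within 2.5 kb of the start. With −log10 q limits of 5 and 10 it was 24 and 23. The count longer in the knockout list was 29, 28 within 2.5 kb of the start and 30 with the 20000 regions. Requiring a reciprocal overlap of 50% reduced the shared knockout regions to 4, from 8, and the shared wild-type regions to 4, from 11. No paired analysis was possible because each genotype has 1 library. Depth is unknown, so a window at 0 bp means that no region was called there, not that the mark was absent.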
